A study of Mus musculus with 20 samples.

Results

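Chromosome 15 was raised in 4 murine T lineage acute lymphoblastic leukemias (T-ALLs) and low in 4 others, and the levels of its single genes were compared between these sets. For each leukemia the median deviation of the expressed chromosome 15 genes from their means over 9 leukemias was calculated from RNA sequencing. Of these 9, leukemias over 0.1 on the log2(FPKM + 1) scale formed the raised set (2M, 78A, 8633 and JW14), and leukemias under -0.1 formed the low set (20M, 73A, 5C and JW81). Together they account for 8 of the 10 leukemias and 16 of the 20 libraries. FPKM are the counts of a gene per kilobase of its exons and per 1000000 counts of the library.

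The leukemias had been induced by insertional mutagenesis with the retrovirus MOL4070LTR in C57Bl/6 x 129Sv/Jae F1 mice, and RNA came from the marrow of recipient mice. Each leukemia gave 2 libraries, whose column names carry the letters VEH and DEX. These letters are not explained in the sources used here. The last part of the DEX column names of 2M, 73A and 4638 matches no sample title, so these columns were assigned to their leukemia by the other parts. For each leukemia the values of both libraries were averaged. Both libraries hold the same leukemia, so the leukemia is the replicate. Chromosome copies were not measured here, and the sets are defined by RNA alone.

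A cell that gains a chromosome carries an additional copy of every gene on it, and in the simplest case each gene then gives RNA in proportion to its copies. Feedback on transcription, RNA decay or control by other factors can hold single genes away from that proportion, which is called dosage compensation. Gain of chromosome 15 is a familiar finding in mouse T cell lymphomas and leukemias. The chromosome carries *Myc*, a transcription factor that drives ribosome synthesis, metabolism and cell growth, and that is itself a target of NOTCH1 in T-ALL.

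The 16 libraries held between 8226528 and 39754389 counts. A floor of 3 counts in a gene with 1 kb of exon corresponded to between 0.0755 and 0.365 FPKM, for counting error only. Ribosomal RNA genes gave over 1 count per 1000000 in 4 of these libraries (5C VEH, 20M DEX, JW81 DEX and JW14 DEX), which touches 3 of the 4 low leukemias and 1 of the 4 raised ones. Across genes outside chromosome 15, 8633 and JW14 correlated at r = 0.977, whereas the other 27 pairs of leukemias were between 0.838 and 0.951. The genes are not independent replicates, and whether 8633 and JW14 are independent leukemias was not tested. NOTCH1 target genes were nearly silent in 8633, JW14 and 5C. Their mean level over 8 genes was 0.28 in both 8633 and JW14 and 0.62 in 5C on the log2(FPKM + 1) scale, against 4.14 to 5.17 in the other 5 leukemias. The marrow also held normal blood cells, and in bulk RNA fewer cells of a type and less RNA per cell cannot be told apart.

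The values that placed the leukemias were 0.16 in 2M, 0.24 in 78A, 0.22 in 8633 and 0.22 in JW14. The low set was at -0.24 in 20M, -0.17 in 73A, -0.21 in 5C and -0.28 in JW81. The nearest members to the limits were therefore 2M and 73A. Just outside was 73M, at 0.081. A further leukemia, 4638, did not enter the gene means and was left out of the sets, although its value of 0.11 was over the limit. Since these values chose the sets, they are given as a description.

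Chromosome 15 held 4.69% to 5.04% of the counts in the 8 raised libraries and 3.39% to 3.78% in the 8 low libraries. No raised library overlapped a low one, and the VEH and DEX libraries of a leukemia lay close to each other. The libraries of 73M (4.41% and 4.57%) and 4638 (4.13% and 4.34%) lay between the sets. For genes with at least 5 FPKM, the median ratio of a gene to its mean in the low leukemias, divided by the same ratio over all other chromosomes, was 1.43 in 2M, 1.49 in 78A, 1.51 in 8633 and 1.48 in JW14. The low leukemias lay between 0.975 and 1.04, while 73M was at 1.33 and 4638 at 1.34. The plot of shares and ratios by leukemia shows both measures. The rule used the same chromosome 15 genes, so both measures describe the sets and are no separate evidence. The low leukemias lie near 1 because their own mean is the divisor.

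**Figure D1:**
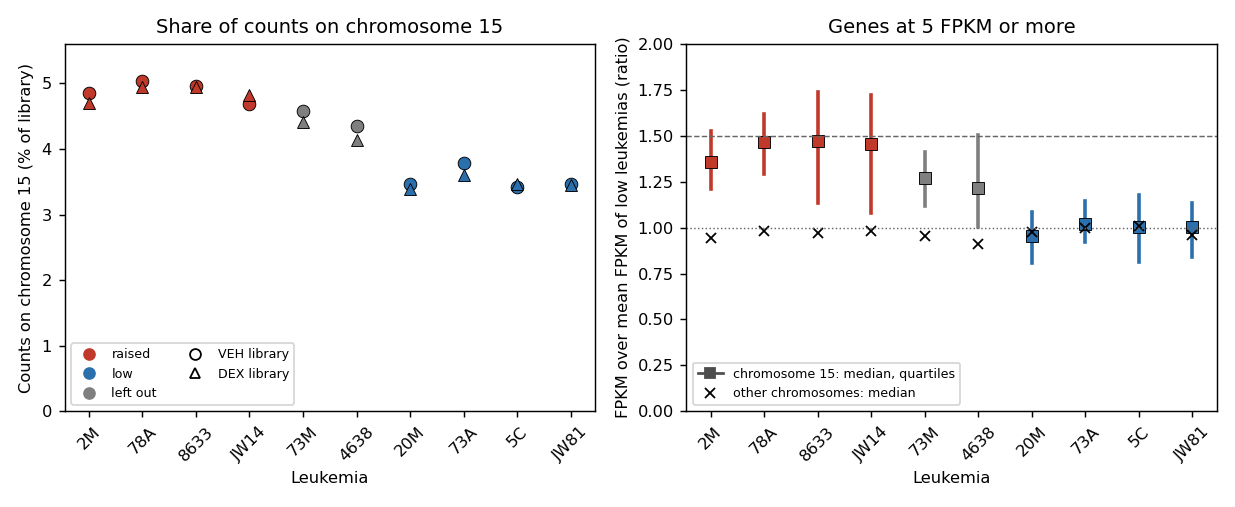
Left, percent of the counts of each library on chromosome 15 (circles, VEH columns; triangles, DEX columns). Right, median and quartiles of the FPKM of chromosome 15 genes over their mean in the low leukemias, with the median of other chromosomes as crosses and lines at 1 and 1.5. The 8 raised libraries sit between 4.69% and 5.04%, all above the low ones.

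Of 1175 chromosome 15 genes in the table, 419 reached a mean of 1 FPKM over 9 leukemias, and 756 did not and were left out. The median difference of these 419 genes, raised minus low, was 0.47 on the log2(FPKM + 1) scale (quartiles 0.24 and 0.62). It was -0.033 over 10920 genes of the other chromosomes. The added 1 FPKM understates differences of low genes, and in the count model (edgeR) the median of the chromosome 15 genes was a log2 fold change of 0.58, or 1.49-fold, against a log2 fold change of -0.0025 elsewhere. The difference was above 0 for 371 of the 419 genes (88.5%), where 45.2% of other genes were above 0. In 34.1% of the 419 genes every raised leukemia lay above every low one, where 0.971% of the genes on other chromosomes did so. No chromosome 15 gene lay lower in every raised leukemia than in every low one, whereas 1.53% of other genes did. Because the rule used these genes, the counts carry no test.

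**Figure D2:**
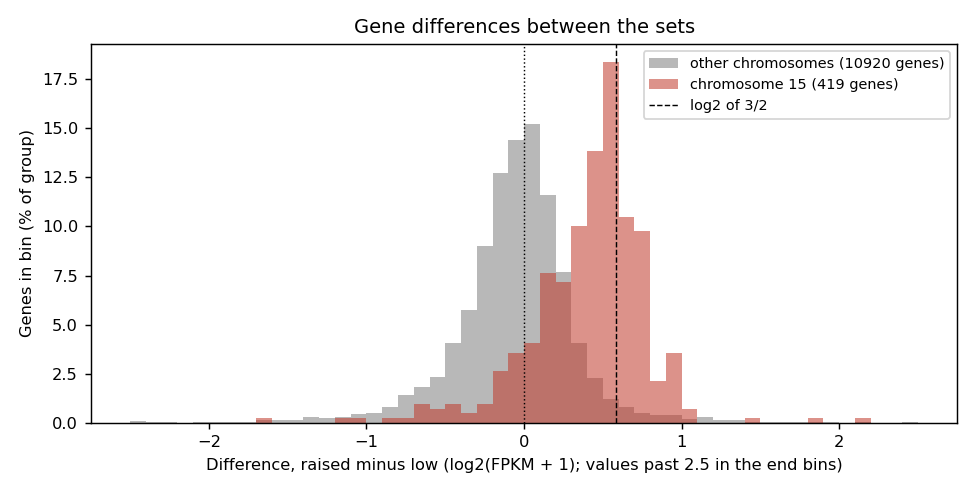
Distribution of gene differences between the sets, in percent of the genes of each group, for chromosome 15 (red, 419 genes) and other chromosomes (grey, 10920 genes). The x axis is the difference of mean log2(FPKM + 1), with lines at 0 and at log2 of 3/2. The red distribution is centred at 0.47 and the grey one at -0.033.

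The difference ran along the whole chromosome. The expressed genes were ordered by position and divided into 10 bins of 41 or 42 genes, and in each bin the 4 raised leukemias had higher median deviations than the 4 low ones. The median gene difference was smallest, 0.35, in bin 8 (*Creld2* to *Amigo2*) and greatest, 0.61, in bin 5 (*Slc52a2* to *Micall1*, chr15:76538832-79136900). In bin 5, 22 of 42 genes (52.4%) did not overlap between the sets, against 34.1% over the chromosome. The bins also differed within leukemias. JW14 ranged from 0.084 in bin 2 to 0.45 in bin 5, and 8633 from 0.049 in bin 10, nearest the telomere, to 0.36 in bin 5. 2M and 78A were more even, at 0.063 to 0.27 and 0.16 to 0.34. Outside the sets, 73M was at 0.18 in bin 2 but at -0.13 in bin 5, and 4638 was at 0.25 in bin 4 and -0.072 in bin 9.

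**Figure D3:**
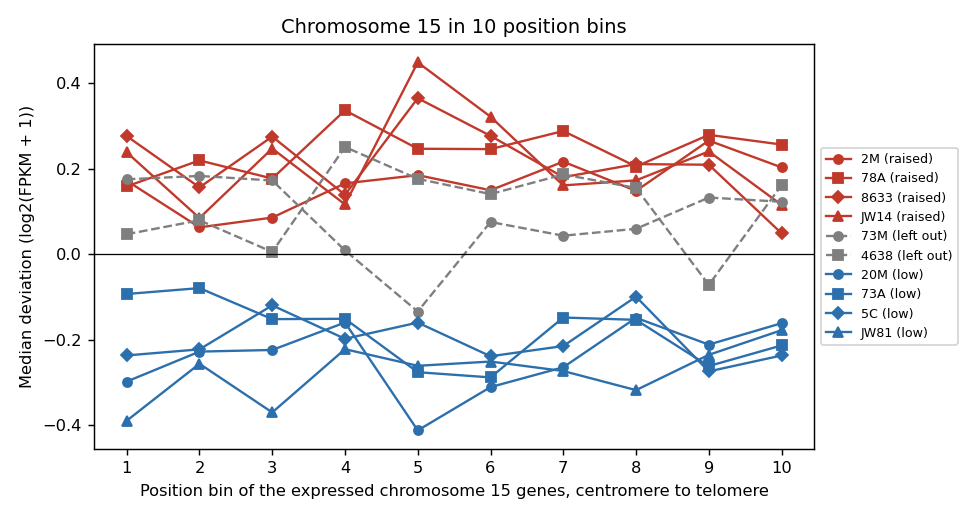
Median deviation of chromosome 15 genes from the 9-leukemia gene means, in 10 position bins of the 419 expressed genes from centromere to telomere, 1 line per leukemia. The red lines (raised) stay above the blue lines (low) in all 10 bins, and the grey lines (73M and 4638) cross 0.

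Genes of all levels shared the difference, and its median was smallest for the lowest genes, where that of other chromosomes was lowest too. The median was 0.33 for the 129 genes at 1 to 5 FPKM, 0.50 for 179 genes at 5 to 20 FPKM, 0.54 for 92 genes at 20 to 100 FPKM and 0.52 for 19 genes at 100 FPKM or more. In the count model the same groups were at 1.44-fold, 1.5-fold, 1.51-fold and 1.48-fold. On other chromosomes the medians of these groups were -0.093, -0.027, 0.054 and 0.094, and 0.928-fold, 1.01-fold, 1.07-fold and 1.09-fold in the count model. Protein-coding genes differed by 0.49, while 26 non-coding genes differed by 0.067. Non-coding genes on other chromosomes had a median difference of -0.22. The difference hardly changed with exon length once the other chromosomes were subtracted, from 0.51 under 2 kb to 0.46 at 8 kb or more.

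Some genes varied little within the sets. The highest ratio of difference to standard error belonged to *Mief1* (chr15:80234018-80253371, plus strand, GRCm38), which encodes a receptor for the fission machinery on the mitochondrial outer membrane. *Mief1* was at 9.37 FPKM in 2M, 9.87 in 78A, 10.1 in 8633 and 11 in JW14, and at 6.65 in 20M, 6.70 in 73A, 6.60 in 5C and 6.86 in JW81. The low leukemias were almost identical, and all raised ones stood above them by a difference of 0.53 (SE 0.046, n = 4 and 4). *Cby1*, an inhibitor of beta-catenin, was at 14.2 ± 0.817 FPKM in the raised set and 8.97 ± 0.553 in the low set (SD, n = 4 each), a difference of 0.61 (SE 0.057). *Trabd*, *Trmu*, *Gtpbp1* and *Copz1* behaved alike, with differences between 0.50 and 0.61. Level between the sets was *Sp1* (chr15:102406143-102436404, plus strand), a transcription factor that binds GC boxes. *Sp1* was at 33.4 FPKM in 2M, 31.4 in 78A, 31.2 in 8633 and 25.9 in JW14, against 33.3 in 20M, 31.1 in 73A, 33.7 in 5C and 24.4 in JW81. Its sets coincided, at 30.5 ± 3.21 and 30.6 ± 4.28 FPKM (SD, n = 4 each).

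The bases before the annotated starts of *Mief1* and *Sp1* are shown as examples, one gene following chromosome 15 and the other level across the sets. They are the parts of the RefSeq promoter windows (build GRCm38.p6) that lie before the gene starts given above, 188 bases at chr15:80233830-80234017 and 77 bases at chr15:102406066-102406142, written 5′ to 3′ on the plus strand. Capitals mark matches on either strand to GGGCGG (the GC box), CCAAT (the CCAAT box) and CGGAAG (a core bound by ETS factors). Of 27025 promoter windows, 22.3%, 26.8% and 8.47% hold these motifs in their first 188 bases, and 7.70%, 10.5% and 2.90% in their first 77.
Mief1: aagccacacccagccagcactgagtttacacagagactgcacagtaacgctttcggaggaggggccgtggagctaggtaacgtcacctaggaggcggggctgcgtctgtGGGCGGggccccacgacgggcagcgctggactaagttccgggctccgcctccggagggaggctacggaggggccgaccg
Sp1: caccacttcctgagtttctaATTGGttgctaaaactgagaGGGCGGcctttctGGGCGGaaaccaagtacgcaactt
The *Mief1* stretch held 1 GC box, and the *Sp1* stretch held 2 GC boxes and 1 CCAAT match. Neither held CGGAAG. A comparison of motifs over all 419 genes was void, since only 223 of them (53.2%) had a promoter in the reference table.

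Genes for RNA polymerases and RNA processing were free of overlap in the greatest share among the 7 gene lists of the chromosome. In 11 of 15 listed genes every raised leukemia lay above every low one, and the median difference was 0.68. Over all 419 chromosome 15 genes this share was 34.1%, and the median 0.47. *Puf60*, a splicing factor of the U2 machinery, was at 36.8, 37.0, 37.8 and 32.0 FPKM in 2M, 78A, 8633 and JW14, and at 18.9, 23.2, 20.0 and 20.3 FPKM in 20M, 73A, 5C and JW81. Its sets were widely apart, with a difference of 0.78 (SE 0.080). *Polr2k*, a small subunit shared by the RNA polymerases, was at 46.7 ± 1.62 against 26.9 ± 5.84 FPKM (SD, n = 4 each). *Cpsf1*, of the complex that reads the polyadenylation signal, differed by 0.70 (SE 0.12), and *Ddx23*, a helicase of the spliceosome, by 0.68 (SE 0.090). *Snu13*, a protein of the U4 snRNP and of box C/D particles, had the greatest difference of the list, 0.96 (SE 0.24). It was at 113 and 128 FPKM in 8633 and JW14, at 66.4 and 78.1 FPKM in 2M and 78A, and at 41.2 to 54.8 FPKM in the low set, and its difference was 0.61 without 8633, JW14 and 5C. The smallest difference was that of *Pcbp2*, a poly(C)-binding protein, at 0.12 (SE 0.26).

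Mitochondrial genes were next, with 8 of 13 tested genes not overlapping, where 34.1% of all chromosome 15 genes did not, and a median difference of 0.67. *Cyc1*, cytochrome c1 of complex III, was at 35.7, 39.4, 45.9 and 39.1 FPKM in 2M, 78A, 8633 and JW14, and at 21.3, 28.6, 25.6 and 23.8 FPKM in 20M, 73A, 5C and JW81. All raised leukemias stood clear of all low ones, with a difference of 0.67 (SE 0.11). Other subunits of the respiratory chain were higher in the raised set too. *Cox6c*, of complex IV, was at 48.4 ± 6.03 against 29.9 ± 1.78 FPKM, and *Ndufb9*, of complex I, at 91.7 ± 17.6 against 53.7 ± 12 FPKM (SD, n = 4 each). *Tomm22*, a receptor of the import pore, differed by 0.53 (SE 0.12). All 13 differences were above 0, as were 88.5% over the chromosome, and ran from 0.39 (*Mrpl13*, a mitochondrial ribosomal protein) to 0.82 (*Sco2*, a copper chaperone of complex IV). A further gene of the list, *Atp5g2*, was listed at 0 in every library.

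Translation genes had a median difference of 0.61, and 3 of 11 did not overlap, close to the share of 34.1% over all chromosome 15 genes. *Eif3d* was at 47.7, 50.4, 67.1 and 62.4 FPKM in 2M, 78A, 8633 and JW14, and at 23.9, 28.0, 40.0 and 36 FPKM in 20M, 73A, 5C and JW81, a difference of 0.83 (SE 0.20). The 3 other eIF3 subunits on the chromosome differed by 0.77 (*Eif3l*), 0.61 (*Eif3e*) and 0.57 (*Eif3h*). Without 8633, JW14 and 5C the difference of *Eif3e* was 0.33. The eIF3 complex, which loads the small ribosomal subunit, also has 9 listed subunits on other chromosomes. Their median difference was 0.14, from -0.16 (*Eif3j1*) to 0.49 (*Eif3g*), and 8 of the 9 were above 0, against 45.2% of all genes outside chromosome 15. None passed the edgeR test at an adjusted p of 0.05, as no gene outside chromosome 15 did. The mean difference of these 9 subunits was 0.17 over all 8 leukemias and -0.034 without 8633, JW14 and 5C. *Rpl8*, a protein of the large ribosomal subunit, was at 1261 ± 400.4 against 713 ± 209 FPKM (SD, n = 4 each), with overlap. *Rpl3* was the exception, at 149, 334, 222 and 226.4 FPKM in the raised set and 187, 200, 266 and 307 FPKM in the low set, which coincide. Both have processed pseudogenes that can share reads, so their levels are uncertain. *Bop1*, a ribosome biogenesis factor, differed by 0.93 (SE 0.41), with 60.3 and 59.3 FPKM in 8633 and JW14 but 26.1 and 27.0 in 2M and 78A. Without 8633, JW14 and 5C *Bop1* differed by 0.49 and *Rpl8* by 0.53.

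Of 22 chromatin and transcription factor genes tested, 5 did not overlap, 19 differed by more than 0 and the median was 0.37. Over all 419 genes of the chromosome, 34.1% did not overlap and 88.5% were above 0. A further gene of the list, *Maff*, had a mean under 1 FPKM. *Atf4*, the activator of the amino acid stress response, was at 57.0, 64.7, 68.5 and 65.7 FPKM in 2M, 78A, 8633 and JW14, and at 32.1, 41.2, 34.4 and 47.1 FPKM in 20M, 73A, 5C and JW81. The sets did not overlap and the difference was 0.73 (SE 0.14). *Hsf1*, the heat shock factor, *Atad2*, a chromatin ATPase, *Zhx1*, a zinc finger homeobox factor, and *Tarbp2*, a partner of Dicer, also did not overlap, with differences of 0.53, 0.51, 0.44 and 0.48. *Ep300*, a histone acetyltransferase, had a difference of -0.0013 (SE 0.39), *Kmt2d*, a histone H3 lysine 4 methyltransferase, of -0.13 (SE 0.65), and *Nipbl*, the cohesin loader, of 0.24 (SE 0.21). *Kmt2d* ranged from 2.97 FPKM in JW14 to 18.2 in 2M and its error was larger than the median difference of the chromosome. *Rad21*, the kleisin of cohesin, was at 104, 112, 91.0 and 78.9 FPKM in the raised and 89.5, 104, 106 and 61.7 FPKM in the low set, a difference of 0.11 (SE 0.21). The 8 cohesin partners on other chromosomes had a median difference of -0.11, and all 8 were below 0, where 45.2% of all genes outside chromosome 15 were above it. None passed the edgeR test, as no gene outside chromosome 15 did, and *Stag2* lay lower in every raised leukemia, where 1.53% of those genes did. The mean difference of the 8 partners was -0.17 over all 8 leukemias and -0.059 without 8633, JW14 and 5C. *Zhx2*, a repressor, had a difference of -0.79 (SE 0.57), at 0.758 and 0.504 FPKM in 8633 and JW14 and 3.10 and 5.78 in 2M and 78A, and its difference was -0.11 without 8633, JW14 and 5C.

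All 14 cell division and DNA repair genes differed by more than 0, where 88.5% of all chromosome 15 genes did, and 3 of the 14 did not overlap, where 34.1% of all did not. These were *Rangap1*, which drives the RAN cycle of nuclear transport (41.5 ± 3.82 against 26.8 ± 3.37 FPKM), *Senp1*, a SUMO protease (13.3 ± 0.52 against 10.4 ± 1.49) and *Mtbp*, a replication factor (7.58 ± 1.34 against 5.67 ± 0.522; SD, n = 4 each). *Xrcc6*, the KU70 subunit of the end-joining machinery, was at 232 and 312 FPKM in 2M and 78A and 89.1 and 93.9 in 8633 and JW14, while the low set ran from 20.7 in 5C to 254 in 73A. Nutrient and lipid genes had the smallest median, 0.24, and 2 of 9 did not overlap. Their mean difference was 0.34 over all 8 leukemias and 0.58 without 8633, JW14 and 5C. *Adsl*, of purine synthesis, differed by 0.93 (SE 0.32) and *Pmm1*, a phosphomannomutase, by 0.75 (SE 0.18). *Dgat1*, the last enzyme of triglyceride synthesis, was level, at 5.19 ± 0.929 against 5.17 ± 1.08 FPKM. *Rictor*, the defining subunit of mTORC2, differed by 0.24 (SE 0.21), and *Deptor*, an mTOR inhibitor, was nearly silent in 8633, JW14 and 5C (0.0319 to 0.143 FPKM) and between 4.30 and 18.5 FPKM in the other 5.

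*Myc* itself did not separate the sets. It was at 37.2 FPKM in 2M, 30.9 in 78A, 116.7 in 8633 and 95.5 in JW14, and at 29.8 in 20M, 40.6 in 73A, 43.7 in 5C and 38.3 in JW81. 2M and 78A lay within the range of the low leukemias, and only 8633 and JW14 stood above it. The difference was 0.69 (SE 0.54). It was -0.094 without the 3 leukemias with silent NOTCH1 targets (8633, JW14 and 5C), 0.39 with 8633 and JW14 counted as 1 sample, and 0.29 without the libraries with ribosomal RNA counts. In 73M and 4638 *Myc* was at 34.5 and 63.4 FPKM. *Pvt1*, the non-coding gene beside *Myc* and a common retroviral insertion site, followed the same leukemias. It was at 1.70, 1.13, 7.88 and 6.10 FPKM in 2M, 78A, 8633 and JW14, against 0.804 to 3.87 FPKM in the low set. *Trib1*, a pseudokinase in the same region, was at 6.74 and 6.30 FPKM in 8633 and JW14 and at 1.35 and 1.92 in 2M and 78A.

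Among the other 16 leukemia and T cell genes, *Mfng*, *Rac2* and *Nckap1l* did not overlap between the sets, a smaller share than the 34.1% of the whole chromosome. *Mfng*, a fringe glycosyltransferase that modifies Notch receptors, was at 16.7, 17.3, 26.0 and 29.1 FPKM in the raised set and 9.57 to 10.9 FPKM in the low set. The difference of 0.99 (SE 0.21) was beyond the log2 of 3/2, and was 0.66 without 8633, JW14 and 5C. *Nckap1l*, of the hematopoietic WAVE complex, was at 65.1 ± 3.34 against 44.9 ± 4.31 FPKM, and *Rac2*, a hematopoietic GTPase, at 164 ± 9.91 against 114 ± 31.4 FPKM (SD, n = 4 each). *Il7r*, the receptor for the T cell growth factor IL-7, had the greatest difference of all 419 genes, 2.11 (SE 1.11). It was at 19.3, 8.29, 7.30 and 21 FPKM in the raised leukemias and at 0.201, 0.488 and 0.760 FPKM in 20M, 5C and JW81. The sets nonetheless overlapped, because 73A was at 26.1 FPKM. *Hdac7*, a class II histone deacetylase of T cells, differed by 0.64 (SE 0.51) and *Lgals1*, galectin-1, by 0.99 (SE 0.48), both with overlap. Without 5C, *Hdac7* differed by 0.24 and *Rac2* by 0.35, and without 20M *Lgals1* differed by 0.62. *Pim3* (0.44, SE 0.16), a kinase, was near the chromosome's median. *Ly6e*, *Ly6a* and *Ptk2* differed by 0.095, 0.094 and -0.090.

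**Figure D4:**
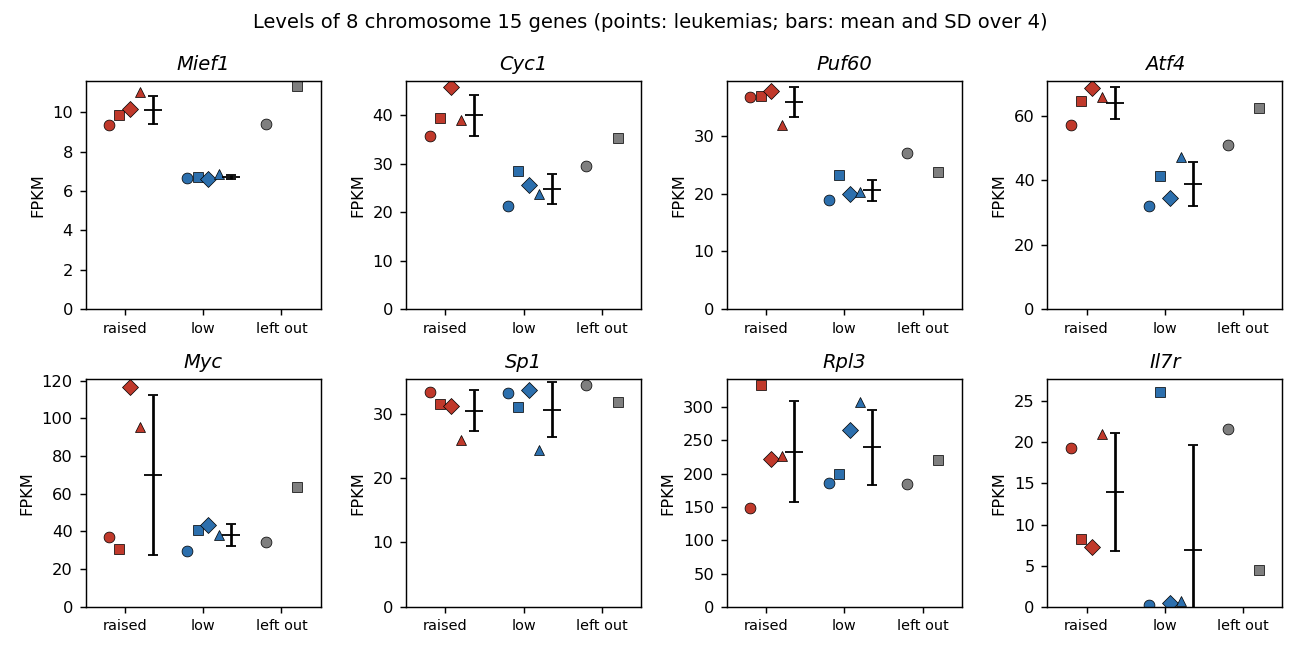
FPKM of 8 chromosome 15 genes in each leukemia (points), with the mean and SD over the 4 leukemias of each set (bars); every axis starts at 0. *Mief1*, *Cyc1*, *Puf60* and *Atf4* separate raised (red) from low (blue), whereas *Myc*, *Sp1*, *Rpl3* and *Il7r* overlap.

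In 21 genes (5.01%) the difference exceeded the log2 of 3/2 by more than 0.3, against 1.58% on other chromosomes. Besides *Il7r*, *Mfng* and *Lgals1* the highest were *Elfn2* (1.84, SE 0.51), *Fam84b* (1.49, SE 0.55), *Ptger4*, a prostaglandin E2 receptor (1.07, SE 0.73), *Galnt6*, which starts O-linked glycans (1.07, SE 0.46), *Atxn10* (1.02, SE 0.29), *Basp1* (1.00, SE 1.08) and *Acvr1b*, an activin receptor (0.99, SE 0.38). Of these 10 genes, *Mfng*, *Galnt6* and *Atxn10* did not overlap. *Atxn10* was at 80.8, 71.6, 140 and 148 FPKM in 2M, 78A, 8633 and JW14, against 41.8 to 59.3 FPKM in the low set. *Galnt6* was at 58.1 to 92.7 FPKM in the raised set and at 13.2 to 52.8 in the low set, where 5C alone was under 40. *Basp1* rested on 2M alone, at 22.8 FPKM, with 0.0688 to 0.188 FPKM in the other raised leukemias. *Ptger4* was high in 8633 and JW14 (9.15 and 11.1 FPKM) and at 0.813 and 1.23 FPKM in 2M and 78A. Without 8633, JW14 and 5C the differences were 1.16 for *Elfn2*, 0.62 for *Atxn10* and -0.15 for *Ptger4*, and without 5C that of *Galnt6* was 0.64.

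Genes level across the sets were few. The difference lay within 0.1 of 0 with a standard error under 0.2 in 7 genes (1.67%), where 18.4% of genes on other chromosomes met the same limits. These were *Sp1*, *Dgat1*, *Tmem71* (3.79 ± 0.755 against 3.66 ± 0.49 FPKM), *Kdelr3*, a receptor that returns proteins to the endoplasmic reticulum, *Npff*, a neuropeptide gene, and the non-coding *Gm16575* and *2810039B14Rik*. Of the 7 only *Sp1* was above 20 FPKM, and *Npff*, *Kdelr3* and *2810039B14Rik* were near 1 FPKM, where the added 1 FPKM compresses differences. A further 25 genes had a difference within 0.1 of 0 but a larger error. In 33 genes (7.88%, against 40.4% elsewhere) the difference was under -0.1. Their median SD within a set was 0.87 on the log2 scale, against 0.41 in the genes within 0.1 of 0 and 0.37 in those that overlapped but differed by over 0.1.

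The 10 lowest differences all had overlapping sets. *Ly6k* (-1.69, SE 1.48) was at 71.6 FPKM in JW81 and under 1 FPKM in the other 7 leukemias of the sets, while 73M, in neither set, was at 129 FPKM. *Ly6c2* (-1.12, SE 0.94), *Ly6d* (-0.65, SE 2.63) and *Selenop*, which carries selenium in plasma (-0.89, SE 0.71), overlapped widely, and *Ly6d* alone ran from 0.0178 FPKM in JW14 to 629 in 78A. Without 8633, JW14 and 5C the difference was -0.0054 for *Ly6c2*, -0.35 for *Selenop* and 1.87 for *Ly6d*. *Ly6c2* has a close paralog, *Ly6c1*, with which it can share reads. *Itgb7*, the beta subunit of the gut homing integrin, was at 103 and 65.0 FPKM in 2M and 78A and at 2.75 and 1.80 in 8633 and JW14, around the low set at 19.9 to 27.0 FPKM, and its difference was 1.71 without 8633, JW14 and 5C. *Dap*, a death-associated protein, was at 0.747 and 0.613 FPKM in 2M and 78A and at 12.4 and 9.11 in 8633 and JW14. The 3 others of the 10 lowest besides *Zhx2* were the non-coding *Rnu12* (-1.07, SE 0.66), *Gm16300* (-0.70, SE 0.48) and *Gm25072* (-0.65, SE 0.25). *Rnu12*, a small nuclear RNA of 151 bases, was at 13.9 to 24.0 FPKM in the 4 leukemias with a library that held ribosomal RNA counts (20M, 5C, JW81 and JW14) and at 0.960 to 2.48 FPKM in the other 4. The part of these libraries in its difference was not tested.

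Genes that did not overlap between the sets were also read in the leukemias that had not been assigned to a set. Of these, 69.9% lay above all 4 low leukemias in 73M and 62.2% in 4638, against 48.4% and 49.6% of all 419 chromosome 15 genes. The same low leukemias chose the genes, which raises such shares by itself, and 26.4% and 41.5% of the 106 genes of other chromosomes that met the same limits did so, against 10.96% and 24.8% of all genes there. Of the other chromosome 15 genes, the shares in 73M and 4638 were 36.5% and 40.8% for the 211 that overlapped but differed by over 0.1, 43.8% and 56.3% for the 32 within 0.1 of 0, and 36.4% and 45.5% for the 33 under -0.1.

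Outside chromosome 15, no gene passed the edgeR test between the sets. edgeR's quasi-likelihood test with Benjamini-Hochberg adjustment gave 0 of 10920 genes (0%) at an adjusted p of 0.05, with a smallest adjusted p of 0.473. An unadjusted p under 0.05 was reached by 494 genes (4.52%), 254 higher and 240 lower in the raised set. The DESeq2 test gave 61 genes, 39 higher and 22 lower. The 10 genes of smallest p with higher levels in the raised set were *Prmt5*, *Rab33a*, *Eno3*, *Rbm38*, *Ptprcap*, *Greb1*, *Tkt*, *Gm4202*, *Pccb* and *Otub1*. *Prmt5*, an arginine methyltransferase of splicing proteins, encoded on chromosome 14, was at 32.5, 34.2, 30.1 and 35.3 FPKM in 2M, 78A, 8633 and JW14, and at 23.2, 22.1, 23.8 and 17.3 FPKM in 20M, 73A, 5C and JW81. Its levels did not overlap, but its adjusted p by edgeR was 0.473 (log2 fold change 0.67, SE 0.13). *Ptprcap*, a partner of CD45, was at 103 to 118 FPKM against 76.4 to 88.6, and *Tkt*, transketolase, at 65.5 to 91.8 against 46.9 to 56.6 FPKM.

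The 10 genes with lower levels were *Dusp16*, *Trat1*, *Pmaip1*, *Plekha1*, *Qk*, *Mob1b*, *Ifi27l2a*, *Snord118*, *Myo9a* and *Gm26538*, none past the edgeR threshold. *Snord118*, a small nucleolar RNA, was at 0.450 to 2.75 FPKM in the 4 leukemias with a library that held ribosomal RNA counts (20M, 5C, JW81 and JW14) and at 0 to 0.159 FPKM in the other 4, and the part of these libraries in its difference was not tested. *Dusp16*, a phosphatase of JNK and p38, was at 0.711, 0.732, 0.472 and 0.480 FPKM in the raised set and at 2.76, 1.45, 1.13 and 1.75 FPKM in the low set (log2 fold change -1.55, SE 0.31, adjusted p = 0.473 by edgeR). *Trat1*, an adaptor of the T cell receptor, was at 5.23 to 6.71 against 7.55 to 14.2 FPKM. *Pmaip1*, which encodes the BH3-only protein NOXA, was at 0.0876 to 0.239 FPKM in the raised set. The low set held 4.86 and 5.91 FPKM in 5C and JW81 but 0.416 and 0.768 in 20M and 73A. The values of the raised set are near the floor of 3 counts.

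Of the 19 other chromosomes, chromosome 4 alone separated the sets, with the raised leukemias lower. Its median deviation was -0.029, -0.022, -0.074 and -0.078 in 2M, 78A, 8633 and JW14, and 0.035, 0.063, 0.0046 and -0.0036 in 20M, 73A, 5C and JW81. This difference of -0.076 (SE 0.021) had an unadjusted p of 0.0286 by the two-sided exact permutation test, the smallest that 70 regroupings allow, and an adjusted p of 0.326. A chromosome alone at that p would have an adjusted p of 0.543, so the test could not have passed a single shifted chromosome. The differences of the 19 chromosomes lay between -0.099 (X and 13) and 0.033 (14). Single leukemias did carry shifts of other chromosomes. 2M was at 0.34 for chromosome 1. Chromosome 14 was high in 2M (0.29), 78A (0.29) and 20M (0.33), and low in 8633 (-0.26), JW14 (-0.26), JW81 (-0.22) and 5C (-0.15). Both sets thus held leukemias with high and low chromosome 14, and 17 of its 417 genes (4.08%) lay higher in every raised than in every low leukemia, against 0.971% over all genes outside chromosome 15. Outside the sets, 4638 was at 0.25 for chromosome 2 and 0.31 for chromosome 17.

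**Figure D5:**
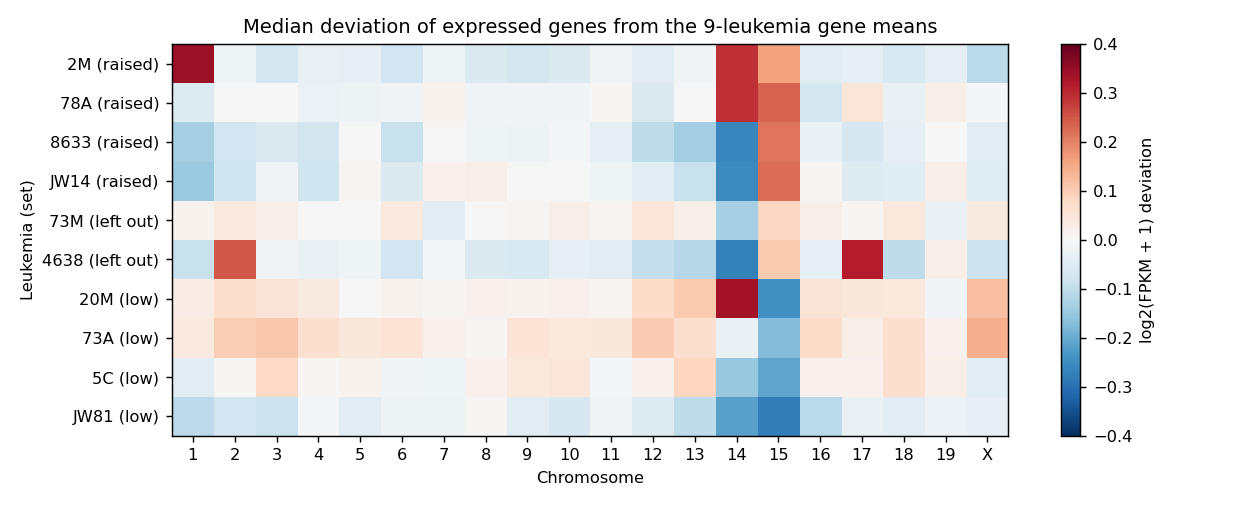
Median deviation of the expressed genes of each chromosome (columns) in each leukemia (rows) from the 9-leukemia gene means, on the log2(FPKM + 1) scale. The column of chromosome 15 divides raised from low leukemias, while chromosome 14 is high in 2M, 78A and 20M, which belong to different sets.

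MYC targets on other chromosomes were higher on average in the raised set, but the sets overlapped. All 22 genes had a difference above 0, with a median of 0.42, where 45.2% of all genes outside chromosome 15 were above 0. None passed the edgeR test and none was free of overlap. Their mean log2(FPKM + 1) was 5.02 in 2M, 5.01 in 78A, 6.07 in 8633 and 6.09 in JW14, and 4.56 in 20M, 5.20 in 73A, 5.48 in 5C and 5.16 in JW81. 2M and 78A were lower than 3 of the 4 low leukemias. The mean difference of the list was 0.45 over all 8 leukemias and 0.041 without 8633, JW14 and 5C. *Ncl*, nucleolin, was at 72.3, 68.1, 126 and 131 FPKM in the raised and 56.2, 76.0, 109 and 64.1 FPKM in 20M, 73A, 5C and JW81. *Ldha*, lactate dehydrogenase A, was at 144, 145, 315 and 298 FPKM against 98.1 to 180 FPKM. *Ccnd2*, cyclin D2, was at 9.45 and 12.8 FPKM in 8633 and JW14 and at 0.224 to 1.3 FPKM in the remaining 6. Of 8 expressed partners and antagonists of MYC (*Max*, the MXD family and others) none passed the edgeR test, and 1, *Mlx*, lay higher in every raised leukemia, where 0.971% of all genes outside chromosome 15 did.

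Markers of marrow cell types differed between leukemias. The T lineage list (12 genes) was at 4.54 to 5.67 in the raised and 4.37 to 5.77 in the low set as mean log2(FPKM + 1). Of the 12 genes 10 had a difference above 0, where 45.2% of all genes outside chromosome 15 did. *Cd3e*, with the lowest difference of the list, was at 15.4 to 22.4 FPKM in the raised and 17.1 to 33.4 FPKM in the low leukemias, and *Lck* at 182 to 284 and 121 to 250 FPKM. *Cd8a*, however, was at 0.1 to 0.359 FPKM in 8633, JW14, 5C and JW81. The myeloid list (11 genes) was at 0.59 to 2.10 in the raised and 1.55 to 2.92 in the low set. Of its 6 tested genes 5 had a difference under 0, where 45.2% of all genes outside chromosome 15 were above it. *Lyz2*, a lysozyme of granulocytes and macrophages, was at 84.6, 76.2, 18.2 and 6.79 FPKM in 2M, 78A, 8633 and JW14 and at 126, 310, 48.8 and 56.6 FPKM in 20M, 73A, 5C and JW81. The erythroid list was at 0.28 to 1.21 and 0.47 to 2.01, and the B lineage list at 0.084 to 0.20 and 0.10 to 0.61. Only genes of at least 1 FPKM entered the edgeR test, among them 5 of 8 erythroid and 1 of 9 B lineage genes. None of the tested genes of these lists passed it, and the part of marrow cells in the differences above was not tested.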

How the data were processed

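Poly(A) RNA of leukemic marrow was sequenced in paired ends. The authors aligned reads to mm10 with Bowtie 2 and quantified them with RSEM, per their methods and processing notes; the RSEM version and gene annotation are not given in the sources used here. Per gene, the deposited table gives expected counts from RSEM, not normalised, although FPKM were named as their unit. FPKM were calculated from merged exon lengths (GENCODE M21), found for 37693 of 39017 genes (96.6%), and library totals. Levels are means over both libraries of log2(FPKM + 1), and the unit of replication was the leukemia. A gene was kept when its mean over 9 leukemias reached 1 FPKM (11339 genes). The members, gene lists and limits were chosen with earlier results of these data known.

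Genes of chromosome 15, which chose the sets, were described by level, difference, SE and overlap, without a test. For other genes, expected counts were summed over both libraries, rounded and tested with edgeR 4.0.16 in R 4.3.3 (TMM, quasi-likelihood, Benjamini-Hochberg). DESeq2 1.42.0 and limma 3.58.1 were alternatives. Python 3.11.15, numpy 2.4.6 and pandas 2.3.3 were used otherwise. The scripts were tested on simulated data. Named genes were members of the lists, the 10 highest and 10 lowest differences on chromosome 15 and the 10 genes of smallest p in each direction elsewhere, since edgeR called none. *Mief1*, *Cby1*, *Trabd*, *Trmu*, *Gtpbp1* and *Copz1* were named after their values were seen, by difference over SE, as were the level genes *Tmem71*, *Kdelr3*, *Npff*, *Gm16575* and *2810039B14Rik*. Libraries of 1 leukemia share its cells, and p-values measure the spread between these leukemias. 1 gene of the mitochondrial list, counted among its members, and the genotypes of the donor mice are not reported here.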

Additional observations from a re-analysis of the deposited data

Results flagged for a closer look

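In 248 sets of 4 values examined for a leukemia apart from the other 3 of its set, 6 had one. The limit is one that 1 in 20 sets of independent normal values would pass. These sets share leukemias and genes, so the count is not compared with chance. On the log2(FPKM + 1) scale these were *Il7r* in 73A (4.75, against 0.26 to 0.80 in the other low leukemias), *Ly6k* in JW81 (6.18, against 0 to 0.69), *Basp1* in 2M (4.47, against 0.096 to 0.24 in the other raised leukemias), *Galnt6* in 5C (3.82, against 5.43 to 5.73), *Puf60* in JW14 (5.04, against 5.24 to 5.28) and *Ptprcap* in 5C (6.48, against 6.27 to 6.30).

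The leukemias outside the sets, 73M and 4638, had median chromosome 15 deviations of 0.081 and 0.11, above all 4 low leukemias (-0.28 to -0.17).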

How the results depend on the processing

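Each set held 4 leukemias that also differed in NOTCH1 target levels and chromosome 14, which limits what can be seen outside chromosome 15, and depth limits genes near 1 FPKM. The median difference of chromosome 15 genes was 0.54 with a pseudocount of 0.1, 0.030 with no filter on low values (150 genes not overlapping and 404 flat chromosome 15 genes, counting genes at 0 FPKM), 0.52 at a mean of at least 5 FPKM, and 0.45 to 0.49 with 1 leukemia left out. Genes that did not overlap numbered 254 without 8633, JW14 and 5C, when 2 faced 3 leukemias and 6.83% of other genes did so, and 147 to 188 with 1 left out. Level genes numbered 4 with a pseudocount of 0.1, 2 at 5 FPKM and 5 to 12 with 1 left out (12 without 2M, 11 without JW81). *Myc* differed by -0.094 without 8633, JW14 and 5C and by 0.34 (without 8633) to 1.03 (without 78A) with 1 left out, and by 0.44 without JW14. Outside chromosome 15, DESeq2 called 61 genes, *Prmt5*, *Dusp16* and *Pmaip1* among them, and every other alternative run called 0, as did each with 1 leukemia left out (0 to 0). No listed gene outside chromosome 15 passed in any alternative. The log2 fold change of *Lck* turned to -0.0098 without 78A and -0.024 without 5C, and was at most 0.30 (without JW81). Settings on ribosomal RNA counts and genes of at least 200 bases were chosen after seeing the data. The sets hold different leukemias, so the comparison between them was not paired.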
